A study of Homo sapiens with 18 samples.

Results

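The genes described here carry glucose from the cell surface to lactate and into glycogen. They are 35 of the 28277 genes in the deposited count table, taken by name from the textbook pathway: the glucose carriers, every cytosolic step of glycolysis with its main isoenzymes, lactate dehydrogenase and its exporters, the pyruvate dehydrogenase kinases and their target, and the enzymes that make and break glycogen. They were followed in OVCAR3-KRAB, a serous ovarian carcinoma line that stably carries dCas9-KRAB, a Cas9 without cutting activity fused to a transcriptional repressor, so that all 18 libraries come from cells with that fusion. Cells held a control guide aimed at the Gal4 promoter (sgCtl) or a guide aimed at the promoter of XIST, the noncoding RNA of X chromosome inactivation (sgXIST7 or sgXIST9). Each guide was studied in clonal cells, so a guide and its clone cannot be told apart. Cultures stayed in normoxia or spent 24 h at 1% oxygen (hypoxia), with 3 libraries in each of the 6 groups, and total RNA was sequenced. Nothing in the sample labels ties a library to a separate culture, and p-values here measure the spread between these libraries.

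Values are CPM, the count of a gene scaled by its library total and TMM factor to a common library size. Every set of 3 values lists replicates 1 to 3, and every set of 3 fold changes lists sgCtl, sgXIST7 and sgXIST9. Library totals ran from 11794375 to 24906936 counts. XIST, the targeted RNA, stood at 329, 867 and 242 CPM in sgCtl normoxia and 123, 249 and 141 CPM in sgCtl hypoxia. In sgXIST7 libraries it lay between 0 and 0.259 CPM, and in sgXIST9 libraries it was at 29.01, 53.6 and 52.4 CPM in normoxia and 16.3, 21.4 and 32.2 CPM in hypoxia. Of 11 markers of the line, EPCAM, KRT18, KRT8 and PAX8 were at 18 counts or more in each library, while MUC16, CLDN3, CLDN4, KRT7, FOLR1, MSLN and WT1 were at 16 counts or fewer. The 3 endothelial markers summed to at most 0.684 CPM. Of 5 fibroblast markers, COL1A2 was at 1 to 6 counts in sgCtl and 694 to 3549 counts in the sgXIST clones. DCN went the other way, at 3 to 30 counts in sgCtl and 0 to 4 counts in the sgXIST clones. Among 8 genes known to be induced by low oxygen outside the pathway, CA9, NDRG1, ANKRD37, BNIP3, VEGFA and P4HA1 rose in all 3 clones, ADM rose in sgXIST7 and sgXIST9, and EGLN3 passed in none.

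Glycolysis splits glucose into pyruvate in the cytosol and yields ATP without oxygen. Pyruvate then either enters mitochondria through pyruvate dehydrogenase, which the PDK kinases switch off, or is turned into lactate and leaves the cell through monocarboxylate carriers. When oxygen falls, prolyl hydroxylases stop marking the hypoxia-inducible factors (HIF) for destruction, and HIF binds short DNA cores in the promoters of many genes of this pathway. Several steps are run by isoenzymes that different genes encode, and glycogen is the glucose store that cells build from the same phosphate intermediates.

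After 24 h at 1% oxygen, most of the 35 genes rose in every clone. By edgeR's quasi-likelihood test with Benjamini-Hochberg adjustment over the 14938 genes tested, and with rose or fell meaning an adjusted p under 0.01, 24 of the 35 genes rose in sgCtl cells, where 18.8% of all genes tested did. In the same cells 7 fell, beside 18.8% of all genes. In sgXIST7 cells 25 rose and 5 fell, beside 23.5% and 23.2% of all genes. In sgXIST9 cells 26 rose and 6 fell, beside 23.1% and 19.0%. The share that rose was far above the background in each clone, and the share that fell was near or below it. The 35 genes were chosen with earlier results of these data known. The excess over the background therefore describes this list and is not evidence about the whole pathway. With a log2 fold change beyond 1 also required, 22 rose and 2 fell in sgCtl (11.3% and 8.49% of all genes), 24 and 2 in sgXIST7 (15.1% and 12.2%), and 23 and 1 in sgXIST9 (14.7% and 8.58%). Among the 34 tested, log2 fold changes had medians of 1.54, 1.83 and 1.49, against 0.02, 0.01 and 0.09 over all genes. Together the 35 genes took 1.31% to 1.62% of the counts in the 9 normoxia libraries and 2.68% to 3.44% in the 9 hypoxia libraries, and these ranges did not overlap. In bulk RNA, more cells with a transcript and more transcript per cell cannot be told apart.

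The genes fell into a few patterns. In all 3 clones 23 rose. ENO1, PYGL and UGP2 rose in only some clones, by the test. GPI, PFKM, PFKFB2, LDHB and PDHA1 fell in all 3, PDHB fell in sgCtl and sgXIST9, and PDK2 fell in sgCtl. SLC16A1 passed in none, and PDK4 was too low to test. The plot of responses shows each gene in each clone.

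**Figure D1:**
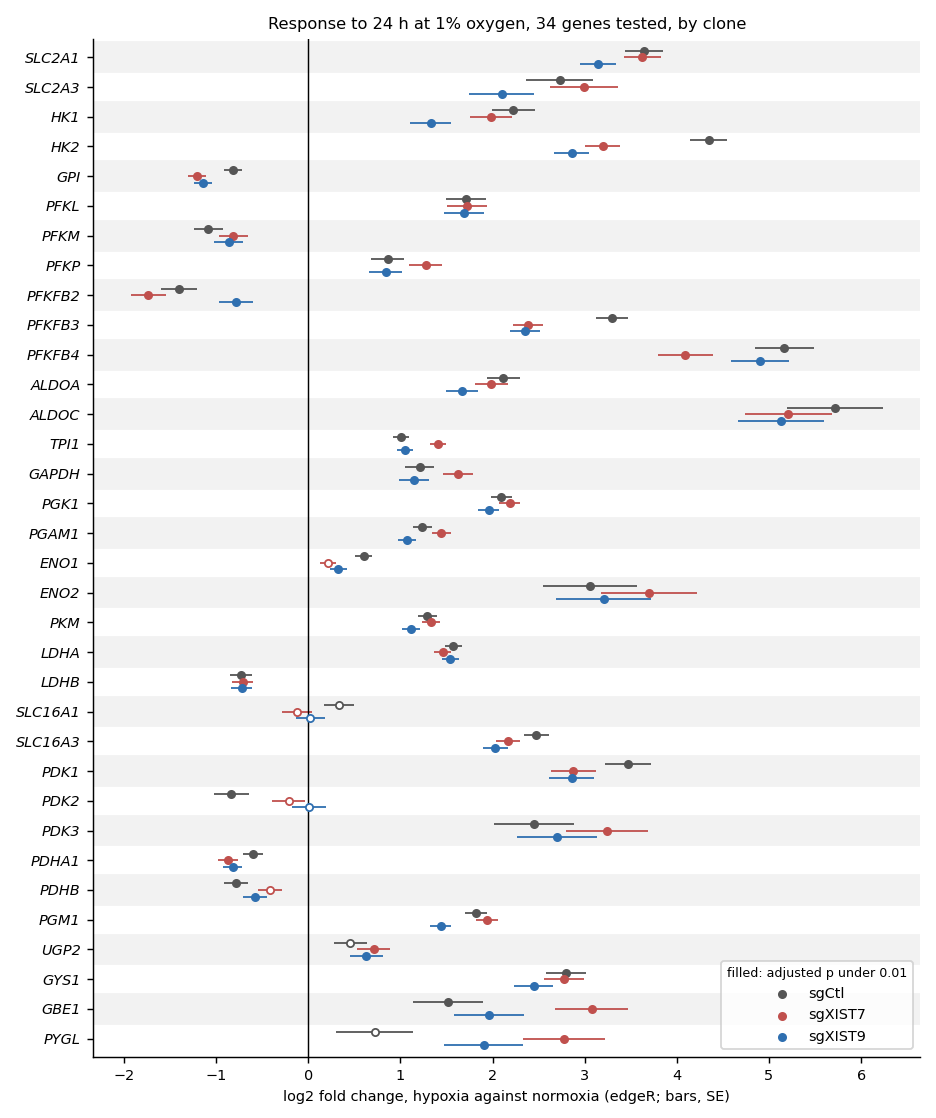
Log2 fold change of hypoxia against normoxia (x axis) for the 34 genes tested (y axis, ordered from uptake to glycogen), by clone, with SE as bars and filled points for an adjusted p under 0.01. In each clone ALDOC and PFKFB4 lie farthest to the right, between 4.09 and 5.72, while GPI, PFKM, PFKFB2, LDHB and PDHA1 lie left of 0 in all 3 clones.

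Promoters of 4 genes that rose and of 1 gene that fell are shown so that the HIF core letters can be seen beside the responses. They were chosen after the values were known. The sequences are RefSeq's on GRCh38.p14, read 5′ to 3′ along the gene. Each ends at a RefSeq start of its gene or, for LDHB, short of its first exon. For PFKFB4 the exons as counted reach chr3:48561129, upstream of that start, so its stretch lies inside the counted gene. Capitals mark ACGTG or GCGTG on either strand, the letters of the known HIF core, and overlapping matches such as CACGTG count on each strand. PFKFB4 lies on the minus strand (chr3:48556804-48557053), as do ALDOC (chr17:28576896-28577145) and LDHB (chr12:21657856-21658092). HK2 (chr2:74833877-74834126, its most upstream start) and PGK1 (chrX:78103998-78104247) lie on the plus strand.
PFKFB4: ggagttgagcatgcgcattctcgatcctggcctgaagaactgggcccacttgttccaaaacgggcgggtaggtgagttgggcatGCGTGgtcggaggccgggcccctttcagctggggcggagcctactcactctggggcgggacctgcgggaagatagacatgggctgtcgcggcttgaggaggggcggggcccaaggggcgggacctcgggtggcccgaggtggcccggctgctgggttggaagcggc
ALDOC: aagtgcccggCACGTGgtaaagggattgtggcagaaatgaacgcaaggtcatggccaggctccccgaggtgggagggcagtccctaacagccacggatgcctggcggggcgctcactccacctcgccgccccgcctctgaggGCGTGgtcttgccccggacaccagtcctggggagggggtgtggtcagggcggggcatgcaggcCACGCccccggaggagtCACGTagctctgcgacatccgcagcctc
HK2: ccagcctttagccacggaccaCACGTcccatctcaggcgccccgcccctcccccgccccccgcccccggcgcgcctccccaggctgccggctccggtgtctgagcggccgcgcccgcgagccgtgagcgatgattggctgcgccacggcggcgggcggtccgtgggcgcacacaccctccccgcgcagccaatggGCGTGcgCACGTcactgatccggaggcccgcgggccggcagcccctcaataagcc
PGK1: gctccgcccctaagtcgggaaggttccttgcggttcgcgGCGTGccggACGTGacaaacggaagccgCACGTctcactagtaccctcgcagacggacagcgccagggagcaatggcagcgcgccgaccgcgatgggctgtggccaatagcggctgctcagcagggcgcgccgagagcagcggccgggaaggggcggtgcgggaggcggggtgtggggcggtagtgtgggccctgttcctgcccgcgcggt
LDHB: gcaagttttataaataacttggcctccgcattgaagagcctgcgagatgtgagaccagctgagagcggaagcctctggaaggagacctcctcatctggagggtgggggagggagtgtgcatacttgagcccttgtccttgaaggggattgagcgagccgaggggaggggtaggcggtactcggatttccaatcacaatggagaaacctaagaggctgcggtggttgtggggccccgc
The PFKFB4 stretch holds 1 match, ALDOC holds 5, HK2 and PGK1 hold 3 each, and LDHB holds 0. RefSeq's table held 63 promoters for 32 of the 35 genes, and 35 of these 63 (55.6%) had a match in the 250 bases before the start, as had 43.2% of all 35116 promoters. Among the genes that rose in all 3 clones 27 of 44 promoters (61.4%) had a match, and among those that fell in all 3 it was 3 of 10 (30.0%). These are shares of promoters and not of genes, since 13 genes had more than 1 promoter. Most promoters in the group that fell were starts of PFKM, and most of those starts lacked a match. In the same group GPI held 1 match and PDHA1 held 3, so the difference between the shares is not one between genes. A match is a run of letters and not a measured binding site. SLC2A1, which rose in all 3 clones, had 0 matches in its window, and PDHB, which fell in sgCtl and sgXIST9, had 6.

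Both glucose carriers rose in every clone. SLC2A1 encodes GLUT1, the carrier for basal uptake in most tissues. In sgCtl cells SLC2A1 stood at 18.8, 18.6 and 17.05 CPM in normoxia and 203, 282 and 194 CPM in hypoxia. In sgXIST7 cells SLC2A1 stood at 22.5, 33.9 and 25.2 CPM in normoxia and 259, 347 and 401 CPM in hypoxia, and in sgXIST9 cells at 20.2, 21.9 and 18.3 CPM in normoxia and 158, 168 and 208 CPM in hypoxia. All 9 hypoxia values exceeded all 9 normoxia values. For SLC2A1 the log2 fold change was 3.64 ± 0.20, 3.62 ± 0.20 and 3.14 ± 0.20 (SE), with adjusted p of 9.87e-10, 4.05e-10 and 2.46e-09. SLC2A3 encodes GLUT3, a carrier of higher affinity. In sgCtl cells SLC2A3 stood at 22.3, 22.6 and 26.8 CPM in normoxia and 150.5, 115 and 211 CPM in hypoxia. In sgXIST7 cells SLC2A3 stood at 23.5, 28.9 and 22.4 CPM in normoxia and 114, 186 and 295 CPM in hypoxia, and in sgXIST9 cells at 18.8, 21.7 and 25.2 CPM in normoxia and 73.2, 54.5 and 154 CPM in hypoxia. Normoxia values were alike in the 3 clones, and the hypoxia values spread widely, with replicate 3 the highest in each clone. SLC2A3 differed between hypoxia and normoxia by log2 values of 2.73 ± 0.36, 2.99 ± 0.37 and 2.10 ± 0.36 (SE), with adjusted p of 1.2e-05, 2.71e-06 and 0.000103. Reads of SLC2A3 are less certain, since 72.5% of the 50-base windows of its exons occur once in the genome.

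Hexokinases trap glucose by phosphorylation, and HK2 is the inducible form. In sgCtl cells HK2 stood at 37.03, 36.04 and 34.4 CPM in normoxia and 743, 743 and 696 CPM in hypoxia. In sgXIST7 cells HK2 stood at 92.4, 109 and 105 CPM in normoxia and 661, 1014 and 1123 CPM in hypoxia, and in sgXIST9 cells at 67.6, 64.97 and 64.9 CPM in normoxia and 432, 376 and 622 CPM in hypoxia. Hypoxia values were the higher in every clone without overlap, and in normoxia every sgXIST value lay above every sgCtl value. HK2 had log2 fold changes of 4.34 ± 0.20, 3.19 ± 0.19 and 2.86 ± 0.19 (SE), with adjusted p of 1.31e-10, 9.25e-10 and 3.59e-09. Its response differed between sgXIST9 and sgCtl by the test given further on. HK1 is the form that most tissues use at rest. In sgCtl cells HK1 stood at 67.4, 58.9 and 66.5 CPM in normoxia and 264, 222 and 417 CPM in hypoxia. In sgXIST7 cells HK1 stood at 112, 124 and 118 CPM in normoxia and 358, 482 and 559 CPM in hypoxia, and in sgXIST9 cells at 107, 112 and 107 CPM in normoxia and 259, 197 and 363 CPM in hypoxia. It rose without overlap in each clone. For HK1 the log2 fold change was 2.23 ± 0.23, 1.99 ± 0.23 and 1.33 ± 0.22 (SE), with adjusted p of 7.35e-07, 1.17e-06 and 8.71e-05. GPI turns glucose phosphate into fructose phosphate and moved the other way. In sgCtl cells GPI stood at 264, 289 and 253 CPM in normoxia and 139, 172 and 148 CPM in hypoxia. In sgXIST7 cells GPI stood at 319, 356 and 320.1 CPM in normoxia and 145, 134 and 150.4 CPM in hypoxia, and in sgXIST9 cells at 329, 358 and 339 CPM in normoxia and 154, 157 and 153 CPM in hypoxia. Every hypoxia value was below every normoxia value. GPI differed between hypoxia and normoxia by log2 values of -0.81 ± 0.10, -1.21 ± 0.10 and -1.15 ± 0.10 (SE), with adjusted p of 3.37e-06, 2.24e-08 and 5.65e-08.

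Phosphofructokinase commits sugar to glycolysis and is built from subunits of 3 genes. PFKP, the platelet type, led the step by level per kilobase of exon in all 6 groups. In sgCtl cells PFKP stood at 202, 205 and 220.04 CPM in normoxia and 316, 314 and 509.9 CPM in hypoxia. In sgXIST7 cells PFKP stood at 255, 271 and 248 CPM in normoxia and 523, 598 and 751 CPM in hypoxia, and in sgXIST9 cells at 209, 229.9 and 208 CPM in normoxia and 354, 326 and 479 CPM in hypoxia. Hypoxia was higher without overlap in each clone. PFKP had log2 fold changes of 0.86 ± 0.18, 1.27 ± 0.18 and 0.84 ± 0.18 (SE), with adjusted p of 0.000773, 1.31e-05 and 0.000812. PFKL is the liver type. In sgCtl cells PFKL stood at 74.5, 76.6 and 73.1 CPM in normoxia and 199, 169 and 366 CPM in hypoxia. In sgXIST7 cells PFKL stood at 78.2, 98.9 and 84.4 CPM in normoxia and 235, 276 and 351 CPM in hypoxia, and in sgXIST9 cells at 63.6, 67.7 and 61.2 CPM in normoxia and 202, 191 and 229 CPM in hypoxia. Replicate 3 in sgCtl hypoxia stood well above its 2 partners, and no group pair overlapped. For PFKL the log2 fold change was 1.71 ± 0.22, 1.72 ± 0.22 and 1.69 ± 0.22 (SE), with adjusted p of 6.85e-06, 3.5e-06 and 5.66e-06. PFKM, the muscle type, fell. In sgCtl cells PFKM stood at 130.3, 126 and 139 CPM in normoxia and 50.5, 51.6 and 84.8 CPM in hypoxia. In sgXIST7 cells PFKM stood at 122, 111 and 119.8 CPM in normoxia and 79.1, 58.7 and 62.5 CPM in hypoxia, and in sgXIST9 cells at 149, 152 and 143 CPM in normoxia and 81.8, 80.1 and 81.8 CPM in hypoxia. The hypoxia values were the lower in every clone without overlap. PFKM differed between hypoxia and normoxia by log2 values of -1.08 ± 0.16, -0.81 ± 0.16 and -0.87 ± 0.16 (SE), with adjusted p of 2.81e-05, 0.000278 and 0.00018.

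The PFKFB enzymes make and remove fructose bisphosphate, the activator of phosphofructokinase, and their genes moved in opposite directions. PFKFB4 had the largest response of the pathway after ALDOC in sgCtl. In sgCtl cells PFKFB4 stood at 12.7, 13.8 and 12.97 CPM in normoxia and 467, 426 and 523 CPM in hypoxia. In sgXIST7 cells PFKFB4 stood at 18.2, 51.98 and 19.8 CPM in normoxia and 428, 528 and 575 CPM in hypoxia, and in sgXIST9 cells at 15.4, 12.96 and 15.4 CPM in normoxia and 408, 415 and 482 CPM in hypoxia. All hypoxia values exceeded all normoxia values, and sgXIST7 normoxia replicate 2 stood apart from its partners. PFKFB4 had log2 fold changes of 5.16 ± 0.32, 4.09 ± 0.30 and 4.90 ± 0.31 (SE), with adjusted p of 2.65e-09, 8.04e-09 and 3.09e-09. Without sgXIST7 normoxia replicate 2 the sgXIST7 value was 4.74. PFKFB3 encodes the form with the highest kinase activity. In sgCtl cells PFKFB3 stood at 37.4, 36.7 and 37.6 CPM in normoxia and 343, 451 and 303 CPM in hypoxia. In sgXIST7 cells PFKFB3 stood at 39.9, 60.6 and 45.3 CPM in normoxia and 224, 258 and 279.96 CPM in hypoxia, and in sgXIST9 cells at 33.8, 41.01 and 39.5 CPM in normoxia and 184, 210.3 and 190.3 CPM in hypoxia. It rose without overlap in each clone, to the highest levels in sgCtl. For PFKFB3 the log2 fold change was 3.30 ± 0.17, 2.39 ± 0.16 and 2.35 ± 0.16 (SE), with adjusted p of 5.35e-10, 4.15e-09 and 6.29e-09. PFKFB2, the heart form, fell. In sgCtl cells PFKFB2 stood at 44.3, 42.1 and 41.6 CPM in normoxia and 19.7, 16.5 and 11.9 CPM in hypoxia. In sgXIST7 cells PFKFB2 stood at 56.8, 50.3 and 62.9 CPM in normoxia and 18.8, 17.3 and 14.8 CPM in hypoxia, and in sgXIST9 cells at 49.6, 47.5 and 54.5 CPM in normoxia and 31.3, 36.3 and 20.3 CPM in hypoxia. No group pair overlapped. PFKFB2 differed between hypoxia and normoxia by log2 values of -1.40 ± 0.19, -1.74 ± 0.19 and -0.78 ± 0.18 (SE), with adjusted p of 1.41e-05, 7.92e-07 and 0.00175.

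**Figure D2:**
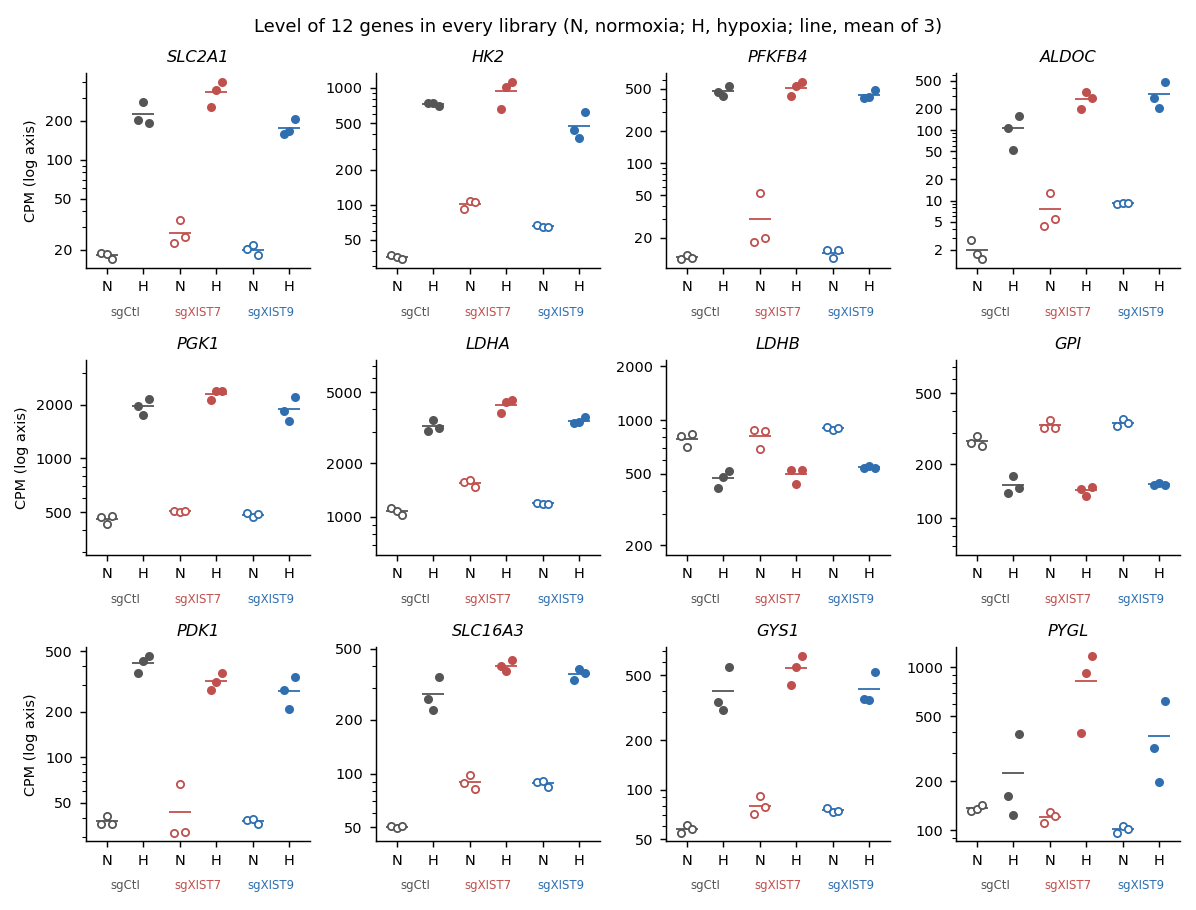
CPM (log axis) of 12 genes in all 18 libraries, by clone and oxygen (N, normoxia, open points, and H, hypoxia, filled points), with a line at the mean of 3 libraries. SLC2A1, HK2, PFKFB4, ALDOC, PGK1, LDHA, PDK1, SLC16A3 and GYS1 stand higher in hypoxia in each clone, LDHB and GPI stand lower, and PYGL overlaps in sgCtl.

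Aldolase splits the phosphorylated sugar into a pair of triose phosphates. ALDOC, the form best known from brain, had the largest response of the pathway in all 3 clones. In sgCtl cells ALDOC stood at 2.75, 1.78 and 1.49 CPM in normoxia and 106, 52.5 and 159 CPM in hypoxia. In sgXIST7 cells ALDOC stood at 4.32, 12.9 and 5.49 CPM in normoxia and 198, 347 and 286 CPM in hypoxia, and in sgXIST9 cells at 9.06, 9.35 and 9.28 CPM in normoxia and 287, 207 and 479 CPM in hypoxia. No hypoxia value came near the normoxia values of its clone, and sgXIST7 normoxia replicate 2 was again the highest of its group. ALDOC had log2 fold changes of 5.72 ± 0.52, 5.21 ± 0.47 and 5.13 ± 0.47 (SE), with adjusted p of 2.04e-07, 8.91e-08 and 1.29e-07. Without sgXIST7 normoxia replicate 2 the sgXIST7 value was 5.81. ALDOA, the muscle and general form, rose less. In sgCtl cells ALDOA stood at 31.9, 23.9 and 28.4 CPM in normoxia and 115, 106 and 144 CPM in hypoxia. In sgXIST7 cells ALDOA stood at 39.00, 28.9 and 36.03 CPM in normoxia and 118, 125 and 169.8 CPM in hypoxia, and in sgXIST9 cells at 34.2, 38.9 and 33.5 CPM in normoxia and 97.04, 105 and 136 CPM in hypoxia. No group pair overlapped. For ALDOA the log2 fold change was 2.11 ± 0.18, 1.99 ± 0.18 and 1.67 ± 0.18 (SE), with adjusted p of 8.88e-08, 7.09e-08 and 6.3e-07. A readthrough gene on the same strand shares 35.7% of the exon bases of ALDOA, so part of its reads may be counted elsewhere.

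The enzymes of the triose steps rose in all 3 clones. TPI1 interconverts the triose phosphates. In sgCtl cells TPI1 stood at 740.5, 703 and 815 CPM in normoxia and 1564, 1419.7 and 1564 CPM in hypoxia. In sgXIST7 cells TPI1 stood at 737, 687 and 754 CPM in normoxia and 1838, 2029 and 1897 CPM in hypoxia, and in sgXIST9 cells at 765, 758 and 753 CPM in normoxia and 1598, 1512 and 1594 CPM in hypoxia. No hypoxia group overlapped its normoxia group. TPI1 differed between hypoxia and normoxia by log2 values of 1.01 ± 0.09, 1.40 ± 0.09 and 1.05 ± 0.09 (SE), with adjusted p of 9.88e-08, 1.53e-09 and 4.23e-08. Of the 50-base windows of its exons 73.5% occur once in the genome, and for GAPDH it is 83.6%. GAPDH oxidises triose phosphate, is often used as a reference gene, and was first of the 35 by level per kilobase in each group. In sgCtl cells GAPDH stood at 3760.4, 3454 and 4015 CPM in normoxia and 7327, 7534 and 11085 CPM in hypoxia. In sgXIST7 cells GAPDH stood at 3492, 3452 and 3414 CPM in normoxia and 8845, 11087 and 11988 CPM in hypoxia, and in sgXIST9 cells at 3558, 3639 and 3585 CPM in normoxia and 7442, 6899 and 9531 CPM in hypoxia. It rose without overlap in every clone, 2.31-fold in sgCtl, 3.08-fold in sgXIST7 and 2.21-fold in sgXIST9. GAPDH had log2 fold changes of 1.21 ± 0.16, 1.62 ± 0.16 and 1.15 ± 0.16 (SE), with adjusted p of 9.23e-06, 2.24e-07 and 1.18e-05. TBP, another common reference gene, chosen after its values were seen, stayed between 17.99 and 32.2 CPM in all 18 libraries. PGK1 makes ATP at the next step. In sgCtl cells PGK1 stood at 471, 429 and 476 CPM in normoxia and 1952, 1759 and 2156 CPM in hypoxia. In sgXIST7 cells PGK1 stood at 508, 503 and 505 CPM in normoxia and 2133, 2392 and 2371 CPM in hypoxia, and in sgXIST9 cells at 497, 468 and 489 CPM in normoxia and 1849, 1609.6 and 2195 CPM in hypoxia. Its values were tight within groups and did not overlap. For PGK1 the log2 fold change was 2.09 ± 0.11, 2.19 ± 0.11 and 1.96 ± 0.11 (SE), with adjusted p of 9.38e-10, 2.72e-10 and 1.11e-09.

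PGAM1 moves the phosphate before the enolase step. In sgCtl cells PGAM1 stood at 360.4, 327 and 379 CPM in normoxia and 788, 839 and 889 CPM in hypoxia. In sgXIST7 cells PGAM1 stood at 363, 311 and 336 CPM in normoxia and 867, 867 and 1016 CPM in hypoxia, and in sgXIST9 cells at 394, 379.8 and 363 CPM in normoxia and 752, 780.1 and 852 CPM in hypoxia. It rose without overlap in each clone, but 20.2% of its 50-base windows occur once, so its reads may be shared with near-identical copies. PGAM1 differed between hypoxia and normoxia by log2 values of 1.24 ± 0.10, 1.44 ± 0.10 and 1.07 ± 0.10 (SE), with adjusted p of 5.23e-08, 4.87e-09 and 1.59e-07. ENO1, the general enolase, was second by level per kilobase in 5 of the 6 groups. In sgCtl cells ENO1 stood at 2624, 2367 and 2441 CPM in normoxia and 3630.1, 3856 and 3782 CPM in hypoxia. In sgXIST7 cells ENO1 stood at 4132, 3495 and 3858 CPM in normoxia and 4321, 4578 and 4442 CPM in hypoxia, and in sgXIST9 cells at 3325, 3301 and 3207 CPM in normoxia and 4065, 4362 and 3905 CPM in hypoxia. Its normoxia level was already higher in the sgXIST clones, and no hypoxia group overlapped its normoxia group. ENO1 had log2 fold changes of 0.60 ± 0.09, 0.22 ± 0.09 and 0.33 ± 0.09 (SE), with adjusted p of 3.03e-05, 0.0435 and 0.00471. The sgXIST9 call was lost without any 1 of the sgXIST9 normoxia libraries (0.33, 0.33 and 0.31, adjusted p = 0.0163, 0.0179 and 0.0251) or sgXIST9 hypoxia replicate 1 or 2 (0.34 and 0.29, adjusted p = 0.0114 and 0.0240).

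ENO2, the neuronal enolase, rose far more than ENO1 from a low level. In sgCtl cells ENO2 stood at 27.2, 33.03 and 21.9 CPM in normoxia and 166, 103 and 413 CPM in hypoxia. In sgXIST7 cells ENO2 stood at 21.4, 47.7 and 20.9 CPM in normoxia and 254, 445 and 467 CPM in hypoxia, and in sgXIST9 cells at 20.6, 21.7 and 23.7 CPM in normoxia and 160.03, 99.3 and 350.5 CPM in hypoxia. Hypoxia values exceeded normoxia values in every clone, with replicate 3 well above its partners in sgCtl and sgXIST9. For ENO2 the log2 fold change was 3.06 ± 0.51, 3.70 ± 0.52 and 3.21 ± 0.52 (SE), with adjusted p of 0.000114, 1.33e-05 and 6.21e-05. Without replicate 3 of the hypoxia group the value was 2.30 in sgCtl and 2.56 in sgXIST9. PKM makes pyruvate and ATP in the last step. In sgCtl cells PKM stood at 1025, 961 and 1042 CPM in normoxia and 2485, 2566 and 2362 CPM in hypoxia. In sgXIST7 cells PKM stood at 1467, 1389.7 and 1299 CPM in normoxia and 3632, 3510.03 and 3306 CPM in hypoxia, and in sgXIST9 cells at 1538, 1617 and 1540.2 CPM in normoxia and 3460.2, 3815 and 2909 CPM in hypoxia. It rose without overlap, and its sgXIST values lay above the sgCtl values at both oxygen levels. PKM differed between hypoxia and normoxia by log2 values of 1.29 ± 0.10, 1.33 ± 0.10 and 1.12 ± 0.10 (SE), with adjusted p of 3.72e-08, 1.18e-08 and 1.07e-07.

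Lactate dehydrogenase showed opposite moves of its subunit genes. LDHA, the subunit known for turning pyruvate into lactate, rose. In sgCtl cells LDHA stood at 1127, 1084 and 1026 CPM in normoxia and 3012, 3467 and 3147 CPM in hypoxia. In sgXIST7 cells LDHA stood at 1565, 1608 and 1475 CPM in normoxia and 3809, 4424 and 4530.1 CPM in hypoxia, and in sgXIST9 cells at 1202, 1189 and 1181 CPM in normoxia and 3350.1, 3400.3 and 3643 CPM in hypoxia. LDHA had log2 fold changes of 1.57 ± 0.09, 1.46 ± 0.09 and 1.54 ± 0.09 (SE), with adjusted p of 1.74e-09, 2.16e-09 and 1.8e-09. LDHB, whose subunit favours the reverse reaction, fell by nearly the same amount in each clone. In sgCtl cells LDHB stood at 817, 707 and 836 CPM in normoxia and 418, 483 and 522 CPM in hypoxia. In sgXIST7 cells LDHB stood at 880.1, 689 and 869 CPM in normoxia and 527, 441 and 523 CPM in hypoxia, and in sgXIST9 cells at 916, 878 and 906 CPM in normoxia and 538, 556 and 542 CPM in hypoxia. All hypoxia values of both genes were clear of the normoxia values of the same clone. For LDHB the log2 fold change was -0.73 ± 0.11, -0.71 ± 0.11 and -0.72 ± 0.11 (SE), with adjusted p of 5.73e-05, 4.98e-05 and 5.14e-05. LDHB holds 0 core matches in the stretch printed above and the LDHA windows hold 5 and 1. Elsewhere SLC2A1, which rose, holds 0 and PDHA1, which fell, holds 3. Whether matches bear on the direction of a response was not tested.

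Of the monocarboxylate carriers, SLC16A3, which encodes the lactate exporter MCT4, rose. In sgCtl cells SLC16A3 stood at 50.7, 49.4 and 50.8 CPM in normoxia and 263, 227 and 349 CPM in hypoxia. In sgXIST7 cells SLC16A3 stood at 88.3, 97.97 and 82.00 CPM in normoxia and 399.8, 374 and 431 CPM in hypoxia, and in sgXIST9 cells at 89.9, 91.2 and 83.9 CPM in normoxia and 332, 387 and 363 CPM in hypoxia. In normoxia each sgXIST value lay above the sgCtl values, and no hypoxia group overlapped its normoxia group. SLC16A3 differed between hypoxia and normoxia by log2 values of 2.47 ± 0.14, 2.17 ± 0.13 and 2.03 ± 0.13 (SE), with adjusted p of 9.39e-10, 1.36e-09 and 3.51e-09. Exons of CSNK1D on the opposite strand cover 19.4% of its exon bases. SLC16A1 encodes MCT1, which carries lactate in or out. In sgCtl cells SLC16A1 stood at 243, 234 and 239.5 CPM in normoxia and 345, 354 and 204 CPM in hypoxia. In sgXIST7 cells SLC16A1 stood at 207, 155 and 204 CPM in normoxia and 188, 167 and 167 CPM in hypoxia, and in sgXIST9 cells at 199, 195 and 186 CPM in normoxia and 197, 211 and 181 CPM in hypoxia. Groups overlapped in every clone, and sgCtl hypoxia replicate 3 was low beside its partners. SLC16A1 had log2 fold changes of 0.33 ± 0.16, -0.12 ± 0.16 and 0.02 ± 0.16 (SE), with adjusted p of 0.0925, 0.54 and 0.915. Without sgCtl hypoxia replicate 3 the sgCtl value was 0.55 (adjusted p = 0.00069), past the threshold.

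The kinases that switch off pyruvate dehydrogenase did not move as a block. PDK1, a well-known HIF target, rose. In sgCtl cells PDK1 stood at 36.5, 40.9 and 36.3 CPM in normoxia and 360.2, 430.5 and 467 CPM in hypoxia. In sgXIST7 cells PDK1 stood at 31.8, 66.2 and 31.9 CPM in normoxia and 277, 313 and 362 CPM in hypoxia, and in sgXIST9 cells at 38.6, 38.9 and 36.3 CPM in normoxia and 279, 207 and 339 CPM in hypoxia. Hypoxia was higher without overlap in each clone, and sgXIST7 normoxia replicate 2 was the highest normoxia value. For PDK1 the log2 fold change was 3.47 ± 0.25, 2.88 ± 0.24 and 2.86 ± 0.24 (SE), with adjusted p of 1.55e-08, 4.27e-08 and 6.12e-08. PDK3 rose too. In sgCtl cells PDK3 stood at 33.7, 37.9 and 28.01 CPM in normoxia and 124, 90.7 and 331 CPM in hypoxia. In sgXIST7 cells PDK3 stood at 40.99, 55.98 and 40.7 CPM in normoxia and 263, 494 and 548 CPM in hypoxia, and in sgXIST9 cells at 33.7, 30.9 and 34.2 CPM in normoxia and 181, 119 and 342 CPM in hypoxia. Replicate 3 led each hypoxia group. PDK3 differed between hypoxia and normoxia by log2 values of 2.45 ± 0.43, 3.24 ± 0.44 and 2.70 ± 0.44 (SE), with adjusted p of 0.000187, 9.16e-06 and 6.49e-05. Without sgCtl hypoxia replicate 3 the sgCtl value was 1.70 (adjusted p = 0.00109).

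PDK2 was low throughout. In sgCtl cells PDK2 stood at 12.01, 14.5 and 14.6 CPM in normoxia and 6.81, 8.63 and 7.53 CPM in hypoxia. In sgXIST7 cells PDK2 stood at 16.5, 14.3 and 16.2 CPM in normoxia and 17.5, 11.5 and 11.3 CPM in hypoxia, and in sgXIST9 cells at 13.4, 12.9 and 13.8 CPM in normoxia and 13.2, 16.3 and 10.7 CPM in hypoxia. The sgCtl groups were apart and the sgXIST groups overlapped. PDK2 had log2 fold changes of -0.84 ± 0.19, -0.21 ± 0.18 and 0.01 ± 0.18 (SE), with adjusted p of 0.00142, 0.326 and 0.975. The sgCtl call was lost without sgCtl hypoxia replicate 1 (-0.75, adjusted p = 0.0107). Exons of SAMD14 on the opposite strand cover 50.6% of its exon bases. PDK4 had 0 or 1 count in every library, at or below 0.0886 CPM, where 3 counts correspond to 0.13 to 0.266 CPM, and it was not detectable at this depth. That limit covers counting error only.

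PDHA1 and PDHB encode subunits of pyruvate dehydrogenase, whose alpha subunit those kinases phosphorylate. PDHA1 fell in all 3 clones and PDHB in sgCtl and sgXIST9. PDHA1 lay between 80.3 and 136 CPM in the 9 normoxia libraries and between 57.2 and 82.0 CPM in the 9 hypoxia libraries, and its groups did not overlap within a clone. For PDHA1 the log2 fold change was -0.60 ± 0.10, -0.87 ± 0.10 and -0.82 ± 0.10 (SE), with adjusted p of 0.000155, 2.09e-06 and 5.13e-06. PDHB lay between 73.0 and 109 CPM in normoxia and between 53.3 and 75.0 CPM in hypoxia, again apart within each clone. PDHB differed between hypoxia and normoxia by log2 values of -0.79 ± 0.13, -0.41 ± 0.13 and -0.57 ± 0.13 (SE), with adjusted p of 9.97e-05, 0.0117 and 0.00129. The sgXIST9 call of PDHB was lost without sgXIST9 hypoxia replicate 2 (-0.47, adjusted p = 0.0101), and its sgXIST7 value passed without sgXIST7 normoxia replicate 2 (-0.52, adjusted p = 0.00376), sgCtl hypoxia replicate 3 (-0.41, adjusted p = 0.00670) or sgXIST9 hypoxia replicate 2 (-0.40, adjusted p = 0.00930). Exons of MAP3K15 on the opposite strand cover 27.1% of the exon bases of PDHA1.

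Among the glycogen genes PGM1, GYS1 and GBE1 rose in all 3 clones, and PYGL and UGP2 in sgXIST7 and sgXIST9. PGM1 joins glycogen to glycolysis by moving the phosphate on glucose. In sgCtl cells PGM1 stood at 51.4, 48.7 and 49.5 CPM in normoxia and 162, 156 and 209 CPM in hypoxia. In sgXIST7 cells PGM1 stood at 75.1, 77.1 and 70.9 CPM in normoxia and 261, 271 and 325 CPM in hypoxia, and in sgXIST9 cells at 71.99, 74.4 and 72.9 CPM in normoxia and 211, 180.1 and 202 CPM in hypoxia. PGM1 had log2 fold changes of 1.82 ± 0.12, 1.94 ± 0.12 and 1.43 ± 0.12 (SE), with adjusted p of 4.71e-09, 1.24e-09 and 3.51e-08. GYS1, the glycogen synthase of most tissues, rose in step with it. In sgCtl cells GYS1 stood at 54.8, 60.9 and 57.9 CPM in normoxia and 342, 307 and 559 CPM in hypoxia. In sgXIST7 cells GYS1 stood at 71.1, 91.4 and 78.1 CPM in normoxia and 435, 559 and 656 CPM in hypoxia, and in sgXIST9 cells at 77.8, 73.5 and 74.5 CPM in normoxia and 356, 354 and 519.8 CPM in hypoxia. Neither gene had overlapping groups within a clone. For GYS1 the log2 fold change was 2.80 ± 0.22, 2.78 ± 0.22 and 2.45 ± 0.21 (SE), with adjusted p of 3.49e-08, 1.53e-08 and 7.72e-08. UGP2 makes the UDP-glucose that synthase uses. It lay between 67.6 and 97.7 CPM in normoxia and between 76.9 and 165 CPM in hypoxia. UGP2 differed between hypoxia and normoxia by log2 values of 0.46 ± 0.18, 0.71 ± 0.18 and 0.63 ± 0.18 (SE), with adjusted p of 0.0436, 0.00276 and 0.00698. Its sgXIST7 call was lost without sgXIST7 normoxia replicate 2 or 3 or sgXIST7 hypoxia replicate 3, and its sgXIST9 call without sgCtl normoxia replicate 1, any sgXIST9 normoxia library or sgXIST9 hypoxia replicate 1 or 3, with values of 0.43 to 0.69 and adjusted p of 0.0103 to 0.0478.

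GBE1 adds the branches of glycogen. In sgCtl cells GBE1 stood at 59.6, 54.99 and 58.6 CPM in normoxia and 125, 100.2 and 271 CPM in hypoxia. In sgXIST7 cells GBE1 stood at 52.8, 38.1 and 49.6 CPM in normoxia and 249, 398 and 540.2 CPM in hypoxia, and in sgXIST9 cells at 61.1, 52.9 and 57.9 CPM in normoxia and 168, 129 and 372 CPM in hypoxia. Hypoxia was higher without overlap in each clone, with replicate 3 highest. GBE1 had log2 fold changes of 1.51 ± 0.38, 3.08 ± 0.40 and 1.96 ± 0.38 (SE), with adjusted p of 0.00317, 5.01e-06 and 0.000373. The sgCtl call was lost without any 1 sgCtl normoxia library (1.53, 1.47 and 1.52, adjusted p = 0.0118, 0.0141 and 0.0122) or sgCtl hypoxia replicate 3 (0.96, adjusted p = 0.0328). PYGL, the liver form of the phosphorylase that breaks glycogen down, varied widely between libraries. In sgCtl cells PYGL stood at 132, 136 and 142 CPM in normoxia and 164, 125 and 388 CPM in hypoxia. In sgXIST7 cells PYGL stood at 111, 131 and 122 CPM in normoxia and 393, 918 and 1178 CPM in hypoxia, and in sgXIST9 cells at 96.9, 106 and 102 CPM in normoxia and 319, 197 and 624 CPM in hypoxia. The sgCtl groups overlapped, since hypoxia replicate 2 lay below all 3 normoxia values, while sgXIST groups were apart. For PYGL the log2 fold change was 0.72 ± 0.42, 2.77 ± 0.44 and 1.90 ± 0.43 (SE), with adjusted p of 0.161, 4.64e-05 and 0.00127. The sgXIST9 call was lost without sgXIST9 hypoxia replicate 3 (1.35, adjusted p = 0.0140).

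Since isoenzyme genes moved unequally, the make-up of 9 steps was compared as the share of 1 gene per step in the summed CPM per kilobase of exon of that step. The shares come from the same libraries as the responses, and the genes were chosen with earlier results known, so they describe the same changes in other units and are not independent evidence of them. An exact permutation test, two-sided, exchanged oxygen labels within clones over 8000 arrangements and cannot go below p = 0.00025. The 9 shares were adjusted together by Benjamini-Hochberg, and all 9 had an adjusted p under 0.05. Aldolase shifted most. ALDOC made up 17.4, 15.4 and 11.4% in sgCtl normoxia and 69.3, 54.8 and 72.9% in sgCtl hypoxia. In sgXIST7 cells the ALDOC share was 21.4, 52.3 and 27.2% in normoxia and 80.5, 87.1 and 80.5% in hypoxia, and in sgXIST9 cells 39.4, 37.1 and 40.4% and 87.9, 82.9 and 89.6%. The mean gain was 49.3 percentage points (exact p = 0.00025, adjusted 0.000321). By level per kilobase ALDOC led in hypoxia in each clone where ALDOA had led by the normoxia mean. In sgCtl hypoxia that lead depends on exon length, 3939 bases for ALDOA and 1608 for ALDOC. By mean CPM ALDOA stood above ALDOC there, at 121.8 against 105.6. The readthrough gene that shares 35.7% of the exon bases of ALDOA may take part of its reads. The level of ALDOA may then be too low and the ALDOC share too high, so which gene leads this step is uncertain. Among the PFKFB enzymes, PFKFB4 made up 21.8, 23.9 and 22.6% in sgCtl normoxia and 64.8, 56.3 and 70.2% in sgCtl hypoxia. In sgXIST7 cells the PFKFB4 share was 25.8, 44.6 and 25.2% in normoxia and 71.8, 73.3 and 73.5% in hypoxia, and in sgXIST9 cells 25.4, 20.8 and 23.1% and 73.8, 71.5 and 76.9%. The mean gain was 44.3 points (exact p = 0.00025, adjusted 0.000321), and PFKFB4 took the lead from PFKFB3 in each clone by level per kilobase. The normoxia lead depends on exon length. By mean CPM, PFKFB2 stood above PFKFB3 in normoxia, at 42.6 against 37.2 in sgCtl, 56.6 against 48.6 in sgXIST7 and 50.6 against 38.1 in sgXIST9.

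Lactate dehydrogenase moved to LDHA. LDHA made up 44.4, 47.03 and 41.5% in sgCtl normoxia and 80.7, 80.6 and 77.7% in sgCtl hypoxia. In sgXIST7 cells the LDHA share was 50.7, 57.5 and 49.6% in normoxia and 80.7, 85.3 and 83.4% in hypoxia, and in sgXIST9 cells 43.2, 43.9 and 43.02% and 78.3, 77.99 and 79.6%. The mean gain was 33.7 points (exact p = 0.00025, adjusted 0.000321), although the mean share in sgXIST7 normoxia was already 52.6%. Shares under 50% depend on exon length, 2760 bases for LDHA and 1599 for LDHB. By mean CPM LDHA stood above LDHB in normoxia, at 1079 against 787 in sgCtl, 1549 against 813 in sgXIST7 and 1191 against 900 in sgXIST9. For lactate transport, SLC16A3 made up 27.5, 27.7 and 27.8% in sgCtl normoxia and 58.1, 53.9 and 75.7% in sgCtl hypoxia. In sgXIST7 cells the SLC16A3 share was 43.7, 53.4 and 42.2% in normoxia and 79.5, 80.2 and 82.5% in hypoxia, and in sgXIST9 cells 45.1, 45.96 and 45.02% and 75.4, 76.9 and 78.5%. The mean gain was 33.6 points (exact p = 0.00025, adjusted 0.000321). For hexokinase, HK2 made up 31.4, 33.7 and 30.05% in sgCtl normoxia and 70.1, 73.5 and 58.1% in sgCtl hypoxia. In sgXIST7 cells the HK2 share was 40.7, 42.2 and 42.4% in normoxia and 60.5, 63.6 and 62.6% in hypoxia, and in sgXIST9 cells 34.4, 32.5 and 33.4% and 58.1, 61.3 and 58.7%. The mean gain was 27.3 points (exact p = 0.00025, adjusted 0.000321), with HK1 leading in normoxia and HK2 in hypoxia in each clone.

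Among the kinases of pyruvate dehydrogenase, PDK1 made up 30.5, 29.7 and 29.7% in sgCtl normoxia and 68.1, 75.9 and 53.1% in sgCtl hypoxia. In sgXIST7 cells the PDK1 share was 22.8, 36.1 and 23.1% in normoxia and 42.9, 33.7 and 34.8% in hypoxia, and in sgXIST9 cells 30.4, 31.96 and 28.7% and 51.9, 51.2 and 43.8%. The mean gain was 21.4 points (exact p = 0.00075, adjusted 0.000844), but the sgXIST7 groups overlapped, and there PDK3 led in hypoxia with 56.7% of the step. The share of PDK2, which was not tested, stood at 39.6 ± 3.68, 38.1 ± 8.34 and 38.99 ± 0.756% in normoxia (mean ± SD, n = 3, in clone order) and 4.46 ± 1.23, 6.14 ± 3.28 and 9.57 ± 4.87% in hypoxia. This share depends on exon length, 4175 bases for PDK2, 15239 for PDK1 and 13136 for PDK3. By mean CPM in normoxia PDK2 was below both in each clone, at 13.7 against 37.9 and 33.2 in sgCtl. Its CPM overlapped between oxygen levels in both sgXIST clones, and SAMD14 exons cover 50.6% of its exon bases. The mean change of SLC2A3 against SLC2A1 was -15.2 points (exact p = 0.00025, adjusted 0.000321), and its mean went from 53.6% to 38.3% in sgCtl. ENO2 gained 7.02 points (exact p = 0.00025, adjusted 0.000321) and stayed at or under 13.1% of enolase in every library. PFKP gained 2.62 points (exact p = 0.01125, adjusted 0.01125) and was free of overlap in 1 of the 3 clones. The remainder of that step was not tested, and PFKM stood at 24.8 ± 0.586, 19.5 ± 1.71 and 27.4 ± 0.695% in normoxia (mean ± SD, n = 3, in clone order) and 6.58 ± 0.361, 5.08 ± 1.58 and 8.90 ± 1.21% in hypoxia. PFKL stood at 21.4 ± 1.10, 21.9 ± 1.80 and 18.04 ± 0.155% in normoxia (mean ± SD, n = 3, in clone order) and 38.3 ± 3.38, 32.1 ± 0.952 and 34.2 ± 1.92% in hypoxia. With only 3 libraries against 3, no share can pass within a single clone, where the smallest exact p is 0.1.

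**Figure D3:**
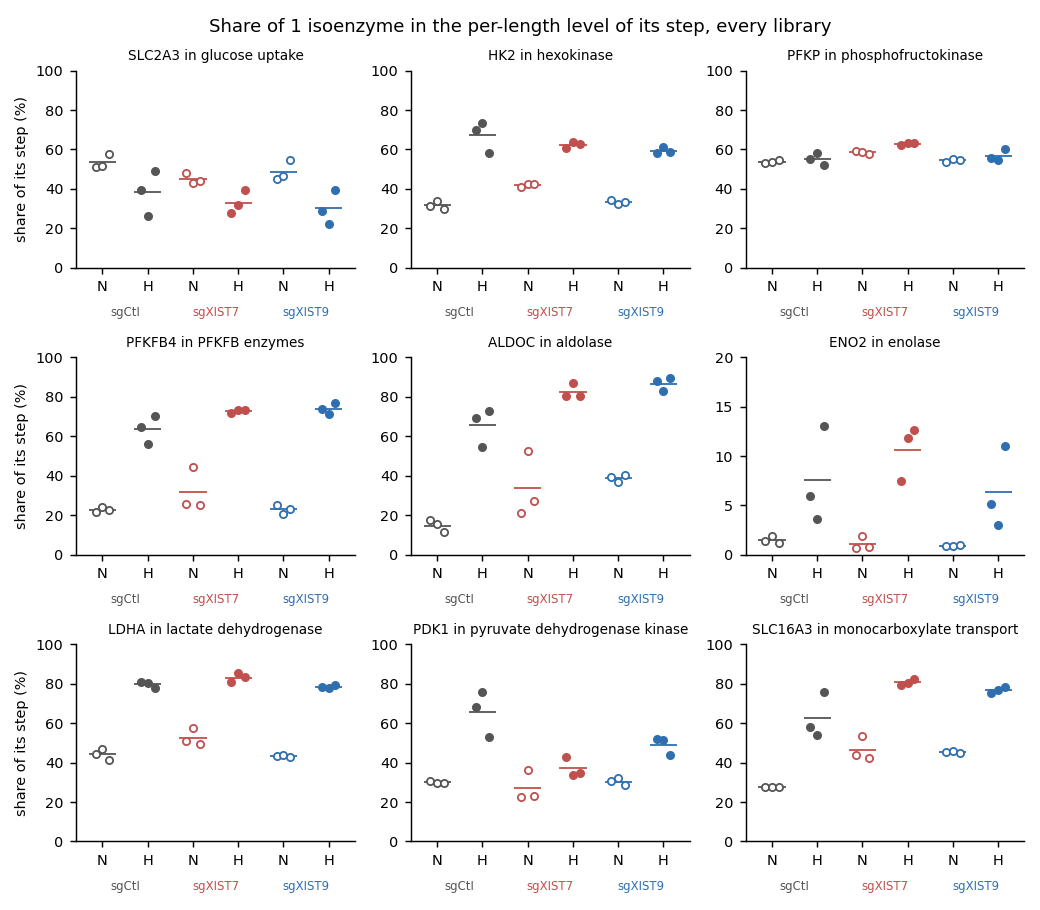
Share of 1 gene in the summed CPM per kilobase of its step (y axis, percent), in each of the 18 libraries by clone and oxygen (N, normoxia, open, and H, hypoxia, filled), with a line at the mean of 3. ALDOC, PFKFB4, LDHA, SLC16A3 and HK2 are higher in hypoxia in each clone without overlap, SLC2A3 is lower, and PFKP moves by 2.62 points on average. The ENO2 panel has a shorter axis.

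By level per kilobase, GAPDH was first and PDK4 last in each group. ENO1 was second except in sgXIST7 hypoxia, where LDHA took that place at 1541 CPM per kilobase against 1407 for ENO1. LDHB held place 3 in sgCtl and sgXIST9 normoxia and place 8 in all 3 hypoxia groups. ALDOC moved from place 34 in sgCtl normoxia to place 20 in sgCtl hypoxia. Genes whose levels are close, such as GYS1 and SLC16A3, both at 113 CPM per kilobase in sgCtl hypoxia, hold places that differ by less than their spread.

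Of the calls on hypoxia responses, 29 of 31 in sgCtl, 29 of 30 in sgXIST7 and 28 of 32 in sgXIST9 held whichever 1 of the 18 libraries was left out. PDK2 and GBE1 in sgCtl, UGP2 in sgXIST7, and PDHB, PYGL, ENO1 and UGP2 in sgXIST9 did not, with the libraries and values given above for each gene. Libraries that stood apart in several of these genes were sgXIST7 normoxia replicate 2 (PFKFB4, ALDOC, PDK1, ENO2) and replicate 3 of the sgCtl and sgXIST9 hypoxia groups (ENO2, PDK3, GBE1, PYGL).

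The clones were compared in normoxia to ask how the XIST knockdown lines stood before oxygen was withdrawn. Both comparisons use the same sgCtl libraries, so they are given side by side and are not independent. In sgXIST7 cells 9 genes were higher than in sgCtl and 0 lower, beside 7.39% and 6.10% of all genes tested. In sgXIST9 cells 7 were higher and 0 lower, beside 6.51% and 6.60%. At an unadjusted p under 0.05 edgeR had 0 lower genes in both comparisons, and DESeq2 called 0 lower in both. For these settings shares over all genes are not given here. The median log2 difference of the 34 genes was 0.30 for sgXIST7 and 0.14 for sgXIST9, against -0.01 and -0.02 over all genes. The share of the listed genes that was higher lay above the background in both, for a list chosen with earlier results known.

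HK2 was 1.51 ± 0.18 (SE, adjusted p = 8.82e-06) higher on the log2 scale in sgXIST7 and 0.88 ± 0.18 (SE, adjusted p = 0.00162) in sgXIST9. SLC16A3, the lactate exporter gene, was higher by 0.83 ± 0.13 (SE, adjusted p = 0.000146) and 0.81 ± 0.13 (SE, adjusted p = 0.000178). PGM1 was higher by 0.58 ± 0.12 (SE, adjusted p = 0.00139) and 0.55 ± 0.12 (SE, adjusted p = 0.00207). ENO1 was higher by 0.63 ± 0.09 (SE, adjusted p = 4.84e-05) and 0.40 ± 0.09 (SE, adjusted p = 0.00282), and PKM by 0.46 ± 0.10 (SE, adjusted p = 0.00264) and 0.63 ± 0.10 (SE, adjusted p = 0.000147). PDHA1 was higher by 0.42 ± 0.10 (SE, adjusted p = 0.00665) and 0.55 ± 0.10 (SE, adjusted p = 0.000871). None of the values of HK2, SLC16A3, PGM1, ENO1, PKM or PDHA1 in either sgXIST clone overlapped the sgCtl values. The other calls came in a single clone. LDHA, HK1 and PFKFB4 passed in sgXIST7, at 0.52 ± 0.09 (SE, adjusted p = 0.000441), 0.87 ± 0.22 (SE, adjusted p = 0.00834) and 1.18 ± 0.28 (SE, adjusted p = 0.00545). Their sgXIST9 values were 0.14 ± 0.09, 0.76 ± 0.22 and 0.15 ± 0.29. ALDOC passed in sgXIST9 at 2.20 ± 0.51 (SE, adjusted p = 0.00468), and its sgXIST7 value was 1.90 ± 0.52 (SE, adjusted p = 0.0132). SLC16A1 and PYGL stood below all sgCtl values in both sgXIST clones without passing, SLC16A1 at -0.34 ± 0.16 (SE, adjusted p = 0.158) and -0.31 ± 0.16 (SE, adjusted p = 0.205) and PYGL at -0.17 ± 0.42 (SE, adjusted p = 0.824) and -0.43 ± 0.42 (SE, adjusted p = 0.533).

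Fewer of these calls held when 1 library was left out. For sgXIST7, PGM1, LDHA, SLC16A3, HK2 and ENO1 held in all 18 cases. PFKFB4 was lost without any sgCtl normoxia library (1.16, 1.22 and 1.17, adjusted p = 0.0248, 0.0177 and 0.0247), and without sgXIST7 normoxia replicate 2 its value was 0.53 (adjusted p = 0.0136). PKM was lost without sgCtl normoxia replicate 1 or 2 or sgXIST7 normoxia replicate 1 (0.47, 0.42 and 0.41, adjusted p = 0.0116, 0.0161 and 0.0154). HK1 was lost in 12 of the 18 cases and PDHA1 in 8, with the highest adjusted p of 0.0404 and 0.0444, both without sgCtl normoxia replicate 2 (0.81 and 0.35). For sgXIST9, SLC16A3, PKM and PDHA1 held. HK2 was lost without sgCtl normoxia replicate 3 (0.85, adjusted p = 0.0104), PGM1 without sgCtl normoxia replicate 2 or 3 or sgXIST9 normoxia replicate 2 (0.53, 0.55 and 0.54, adjusted p = 0.0122, 0.0115 and 0.0109), and ENO1 and ALDOC each without sgCtl normoxia replicate 2 or 3 or any sgXIST9 normoxia library (ENO1 0.37 to 0.42, adjusted p up to 0.0182, ALDOC 2.01 to 2.22, adjusted p up to 0.0278). The count for sgXIST7 went from 9 to 5 without sgCtl normoxia replicate 1 or 2, and that for sgXIST9 from 7 to 4, 3 and 4 without sgCtl normoxia replicate 2, sgCtl normoxia replicate 3 and sgXIST9 normoxia replicate 2.

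The sgXIST clones also differed from sgCtl in COL1A2 and COL1A1. The 5 fibroblast markers summed to 1.16 to 3.63 CPM in sgCtl, 69.9 to 308 CPM in sgXIST7 and 33.5 to 73.7 CPM in sgXIST9, mostly from COL1A2. COL1A1 was at 1 to 10 counts in sgCtl and 19 to 156 counts in the sgXIST clones, while LUM and PDGFRB were at 0 to 8 counts. DCN went the other way, at 3, 5 and 11 counts in sgCtl normoxia and 11, 27 and 30 in sgCtl hypoxia. In the sgXIST clones DCN was at 0 to 4 counts. Of 4 leukocyte markers CD68 alone was above 1 count, and the 4 summed to 10.8 to 29.3, 15.1 to 33.2 and 14.0 to 55.9 CPM. The part of these differences in the values above was not tested.

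In hypoxia, 9 genes were higher and 1 lower in sgXIST7 than in sgCtl cells, beside 13.9% and 13.7% of all genes tested. In sgXIST9 cells 4 were higher and 2 lower, beside 9.65% and 8.24%. When only the groups compared were fitted, 0 genes passed in either contrast, so none of the calls below held in that fit. The share of genes that differed was below or near the background in each direction, apart from the higher genes of sgXIST7. SLC16A1 was the gene lower in both clones, at -0.79 ± 0.16 (SE, adjusted p = 0.00097) and -0.62 ± 0.16 (SE, adjusted p = 0.00814) on the log2 scale. PFKFB3 was lower in sgXIST9, at -0.91 ± 0.16 (SE, adjusted p = 0.000277), and its sgXIST7 value was -0.53 ± 0.15 (SE, adjusted p = 0.0117). PDK2 was higher in both clones, by 0.81 ± 0.19 (SE, adjusted p = 0.00248) and 0.81 ± 0.19 (SE, adjusted p = 0.00358). PKM was higher by 0.50 ± 0.10 (SE, adjusted p = 0.000832) and 0.46 ± 0.10 (SE, adjusted p = 0.00208), and ALDOC by 1.40 ± 0.39 (SE, adjusted p = 0.00905) and 1.62 ± 0.39 (SE, adjusted p = 0.005). PFKFB2 was higher in sgXIST9, by 0.87 ± 0.19 (SE, adjusted p = 0.00237), where its sgXIST7 value was 0.08 ± 0.19.

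The 6 others called in sgXIST7 were PYGL, PFKP, PGM1, SLC16A3, LDHA and TPI1. PYGL had the largest difference, 1.88 ± 0.43 (SE, adjusted p = 0.00229), followed by PFKP at 0.72 ± 0.18 (SE, adjusted p = 0.00432) and PGM1 at 0.70 ± 0.11 (SE, adjusted p = 0.000143). SLC16A3 was at 0.52 ± 0.13 (SE, adjusted p = 0.0036), LDHA at 0.41 ± 0.09 (SE, adjusted p = 0.00211) and TPI1 at 0.34 ± 0.09 (SE, adjusted p = 0.00436). Their sgXIST9 values were 0.75 ± 0.42 for PYGL, 0.03 ± 0.18 for PFKP, 0.17 ± 0.11 for PGM1, 0.37 ± 0.13 for SLC16A3, 0.11 ± 0.09 for LDHA and 0.05 ± 0.09 for TPI1, none of them called.

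These hypoxia contrasts leaned on single libraries. In sgXIST7 the count of 10 became 3 without sgCtl hypoxia replicate 1, 6 without replicate 2 and 19 without replicate 3, the library that stood apart, and it became 6 and 4 without sgXIST7 hypoxia replicates 2 and 3. In sgXIST9 the count of 6 became 3 without sgCtl hypoxia replicate 1, and 1 and 2 without sgXIST9 hypoxia replicates 1 and 2. PGM1, SLC16A1 and PKM held in all 18 cases for sgXIST7, and PFKFB3 for sgXIST9. PYGL in sgXIST7 was lost without sgCtl hypoxia replicate 1 or 2 or sgXIST7 hypoxia replicate 3 (1.69, 1.59 and 1.54, adjusted p = 0.0161, 0.0171 and 0.0146), and it was 2.52 without sgCtl hypoxia replicate 3. For sgXIST7, ALDOC was lost in 12 of the 18 cases and reached an adjusted p of 0.0485 without sgCtl hypoxia replicate 2 (1.07), PFKP 0.0306 without sgXIST7 hypoxia replicate 3 (0.56), TPI1 0.0250 without sgXIST7 hypoxia replicate 2 (0.30), SLC16A3 0.0233 without sgCtl hypoxia replicate 2 (0.39), PDK2 0.0177 without sgXIST7 hypoxia replicate 1 (0.57) and LDHA 0.0146 without sgCtl hypoxia replicate 1 (0.36). For sgXIST9, SLC16A1 was lost in 14 of the 18 cases and reached 0.0508 without sgCtl hypoxia replicate 2 (-0.48), ALDOC 0.0400 without sgXIST9 hypoxia replicate 3 (1.23), PDK2 0.0238, PKM 0.0167 and PFKFB2 0.0164 without sgXIST9 hypoxia replicate 2 (0.63, 0.36 and 0.67).

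Whether the clones answered hypoxia differently was tested as the difference between 2 responses. For sgXIST7 minus sgCtl 0 genes of the pathway passed, beside 2.17% of all genes in either direction. For sgXIST9 minus sgCtl 1 passed, beside 1.26%. For sgXIST7 minus sgXIST9 0 passed, beside 0.174%. At an unadjusted p under 0.05, edgeR had 9 genes for sgXIST7 minus sgCtl and 8 for sgXIST7 minus sgXIST9, and DESeq2 called 4 and 1. With the replicate number as a block, 2 passed for each difference from sgCtl, HK2 and PFKFB3 in both. Shares over all genes at these other settings are not given here, so these counts have no background beside them. Differences to sgCtl share the sgCtl libraries. The median difference of the 34 genes was 0.02, -0.17 and 0.19, against -0.01, 0.04 and -0.05 over all genes.

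The gene that passed without the block was HK2, whose response was the smaller in sgXIST9, with a difference from sgCtl of -1.49 ± 0.25 (SE, adjusted p = 0.00314) on the log2 scale. Its sgXIST7 difference was -1.15 ± 0.25 (SE, adjusted p = 0.0108). HK2 stood at 37.03, 36.04 and 34.4 CPM in sgCtl normoxia and at 67.6, 64.97 and 64.9 CPM in sgXIST9 normoxia. In hypoxia it reached 743, 743 and 696 CPM in sgCtl and 432, 376 and 622 CPM in sgXIST9. So its sgXIST9 values were above sgCtl in normoxia and below in hypoxia, without overlap. The sgXIST9 call was lost without sgCtl normoxia replicate 2 or 3, sgXIST9 normoxia replicate 1 or 2, or sgXIST9 hypoxia replicate 1 (-1.49, -1.46, -1.47, -1.49 and -1.42, adjusted p = 0.0113, 0.0124, 0.0113, 0.0104 and 0.0118). Over all alternatives its adjusted p ran from 2.74e-06 to 0.160. The sgXIST7 difference passed without sgCtl hypoxia replicate 3 (-1.18, adjusted p = 0.00391), without sgXIST7 hypoxia replicate 3 (-1.30, adjusted p = 0.00908), and without sgXIST9 hypoxia replicate 2 or 3 (-1.15, adjusted p = 0.00729 and 0.00289).

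Other genes came close without passing. PFKFB3 had differences of -0.91 ± 0.22 (SE, adjusted p = 0.0185) and -0.94 ± 0.22 (SE, adjusted p = 0.0207), both of which passed without sgCtl hypoxia replicate 3 (-1.03 and -1.06, adjusted p = 0.00267 and 0.00304). PYGL had 2.05 ± 0.59 (SE, adjusted p = 0.0405) for sgXIST7, and GBE1 1.56 ± 0.53 (SE, adjusted p = 0.0702). Without sgCtl hypoxia replicate 3 the PYGL, GBE1 and SLC16A1 differences of sgXIST7 passed (2.70, 2.12 and -0.66, adjusted p = 0.00378, 0.00658 and 0.00562), bringing the count to 5 for sgXIST7 and to 2 for sgXIST9. Without sgXIST9 hypoxia replicate 3, PFKFB2 passed for sgXIST7 minus sgXIST9 (-1.15, adjusted p = 0.00908). The plot of response differences shows that for most genes the SE bars cover a range that includes 0 or lie near it, which does not show that the responses were equal.

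**Figure D4:**
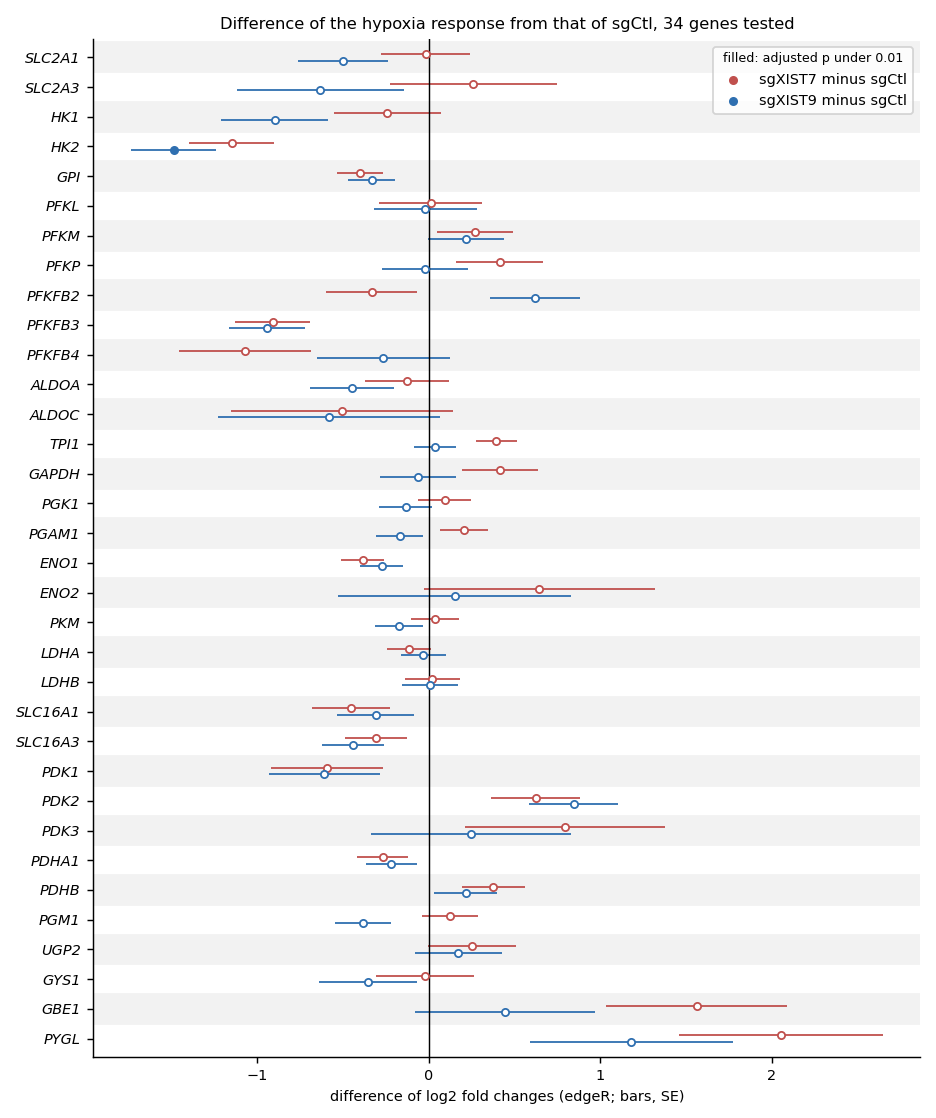
Difference of the log2 response to hypoxia from that of sgCtl (x axis) for the 34 genes tested (y axis), red for sgXIST7 and blue for sgXIST9, with SE as bars and filled points for an adjusted p under 0.01. Only the HK2 point of sgXIST9, at -1.49, is filled, and PFKFB3 lies at -0.91 and -0.94.

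Other genes of the same pathways, from a list of 74 that held the remaining isoenzymes, the glycogen machinery, pyruvate entry, gluconeogenesis and the pentose phosphate branch, moved less. Of 56 tested, 13 rose and 10 fell in sgCtl, 14 and 11 in sgXIST7, and 16 and 11 in sgXIST9, shares near those of all genes. Their log2 fold changes had medians of 0.12, 0.07 and 0.22. Risers in all 3 clones included PPP1R3B and PPP1R3E, which bring the phosphatase that activates glycogen synthase to glycogen, at 3.22, 3.82 and 3.56 and 2.57, 3.90 and 3.11. STBD1, which binds glycogen, was at 2.44, 2.01 and 2.64. Isoenzymes in that group were ENO3, the muscle enolase, at 1.38, 2.02 and 2.58, PGAM4, a retrogene close to PGAM1 that may share its reads, at 1.37, 1.17 and 1.25, and the glucose carrier gene SLC2A12 at 1.59, 1.39 and 2.97.

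PCK2, the mitochondrial enzyme of gluconeogenesis, rose by 1.56, 1.67 and 1.62, PGLS of the pentose phosphate branch by 0.88, 1.00 and 1.01, and MPC2, part of the mitochondrial pyruvate carrier, by 0.79, 0.52 and 0.39. Fallers in all 3 clones were TKT and TALDO1, which link the pentose phosphates back to glycolysis, at -1.29, -1.40 and -1.31 and -0.84, -1.06 and -0.74. DLAT and DLD, the remaining catalytic parts of the pyruvate dehydrogenase complex, fell with PDHA1, at -0.70, -1.06 and -0.99 and -0.68, -0.45 and -0.49. GYG1, the primer of glycogen, was at -0.91, -1.19 and -0.67. In sgCtl the largest changes of this list after PPP1R3B, PPP1R3E and STBD1 were those of PFKFB1 at -2.41 and PGM2L1 at 1.78.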

How the data were processed

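Total RNA of 18 libraries was read as the authors' deposited table of raw counts per gene. Per the labels and the study's methods, reads were trimmed with Trimmomatic, checked with FastQC, aligned to hg38 with HISAT2 and counted per gene with featureCounts. Versions, the annotation, the strand setting and the treatment of multimapped reads are not given in the sources used here, although the library kit marks strand. Near-identical copies and overlapping genes can therefore share reads, and the members this touches are named with the share concerned. Libraries held 11794375 to 24906936 counts, of which RN7SL1 took 3.00% to 8.13%. Counts are not unique molecules, so detection limits cover counting error only.

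Of 28279 lines, 2 broken lines that name no gene and hold 0 counts were left out. Groups came from the labels. Genes were filtered with filterByExpr (minimum count 10, minimum total 15), which kept 14938 genes and 34 of the 35 members, and were scaled with TMM (factors 0.859 to 1.12). A single fit of all 6 groups used edgeR 4.0.16 in R 4.3.3 (glmQLFit with robust estimation, glmQLFTest, prior count 0.125), with Benjamini-Hochberg adjustment over all genes tested and a threshold of 0.01. The code was tested on simulated data. Isoenzyme shares were tested by exact permutation of oxygen labels within clones, with a threshold of 0.05. Tables and plots used numpy 2.4.6, pandas 2.3.3, scipy 1.17.1 and matplotlib 3.10.9. Gene lengths were exon bases on the main chromosomes.

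Alternatives were DESeq2 1.42.0, other scalings and filters, other thresholds, smaller fits with just the compared groups, a replicate block, and leaving out libraries. Same-numbered libraries deviated together for sgCtl normoxia with sgCtl hypoxia (r = 0.136, 0.103 and 0.105 across genes) and with sgXIST7 normoxia (r = 0.265, 0.552 and 0.318). They also did for sgCtl hypoxia with sgXIST9 hypoxia (r = 0.255, 0.569 and 0.605), although replicate 1 reached 0.317 with another number. The values were 0.162, 0.355 and 0.00559 for sgXIST7 normoxia with hypoxia and 0.114, 0.0907 and 0.016 for sgXIST9 normoxia with hypoxia. They were 0.0542, 0.0928 and 0.158 for sgCtl with sgXIST9 normoxia, and 0.366, -0.00652 and 0.433 for sgCtl with sgXIST7 hypoxia. The pairing comes from the numbers in the labels, which name no shared day or batch. Values in every library were given for genes past the threshold with a log2 fold change beyond 1 in a response, past it in a response difference, or leading their step by level per kilobase, while PDHA1, PDHB, UGP2 and PDK4 were given by range. Other pathway genes were named if they had the 5 largest changes in sgCtl or passed in all 3 responses one way. The members and gene lists were chosen with earlier results of these data known.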

Additional observations from a re-analysis of the deposited data

Results flagged for a closer look

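The response of HK2 to hypoxia differed between clones by the test of the difference itself. It was -1.49 ± 0.25 (SE) on the log2 scale for sgXIST9 minus sgCtl, with an adjusted p of 0.00314 by edgeR's quasi-likelihood test. All 3 sgXIST9 libraries lay above the 3 sgCtl libraries in normoxia and below them in hypoxia. The call was lost when certain single libraries were left out, as given above. The difference of sgXIST7 from sgCtl was -1.15, with an adjusted p of 0.0108 by the same test.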

How the results depend on the processing

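The counts of genes that rose with hypoxia kept within 1.5 times under every alternative. The number that fell became 2, 2 and 1 in sgCtl, sgXIST7 and sgXIST9 with a log2 fold change beyond 1 required. With that limit the counts against sgCtl were 2 for sgXIST7 and 1 for sgXIST9 in normoxia, and 2 and 1 in hypoxia. Fits of only the groups compared called 12 genes for sgXIST9 in normoxia, 0 for sgXIST7 in hypoxia and 0 for sgXIST9 in hypoxia. At an adjusted p under 0.05 there were 17 genes for sgXIST7 in hypoxia, 4 for the sgXIST7 response difference and 2 for that of sgXIST9. Without the 3 hypoxia libraries numbered 3, an alternative chosen after seeing the data, the counts were 19 for sgXIST7 in hypoxia and 8, 3 and 2 for the differences sgXIST7 minus sgCtl, sgXIST9 minus sgCtl and sgXIST7 minus sgXIST9. The sgXIST7 difference had 1 gene with upper-quartile scaling, without the filter and with a filter at a mean CPM of 1, and DESeq2 called 4, 2 and 1 for the 3 differences. With the replicate block, the paired fit, 2 genes passed for each difference from sgCtl, PDHB fell as a sixth gene in sgXIST7, the counts in sgCtl and in sgXIST7 normoxia were the same, and that of sgXIST9 in hypoxia was 8. ALDOC was no longer called for sgXIST9 in normoxia and sgXIST7 in hypoxia. Apart from the fold limit on the responses, shares over all genes are not given for these alternatives. Their counts, and those with libraries left out, therefore have no background beside them.

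Leaving out libraries gave 22 to 25 genes higher and 3 to 7 lower in sgCtl, 24 to 25 and 5 to 6 in sgXIST7, and 22 to 26 and 4 to 6 in sgXIST9. Against sgCtl it gave 1 to 10 for sgXIST7 and 0 to 8 for sgXIST9 in normoxia, and 0 to 19 and 0 to 9 in hypoxia. For the differences it gave 0 to 5, 0 to 2 and 0 to 1, and for the isoenzyme shares 8 to 9. Values near 0 that were not called changed sign in sgXIST9. SLC16A1 was -0.0024 in the fit of only the groups compared, -0.0042 with DESeq2, and -0.026 to 0.084 with libraries left out. PDK2 was -0.016 with median-of-ratios scaling, -0.017 in the fit of only the groups compared, -0.018 with DESeq2, and -0.18 to 0.18 with libraries left out. The cause of these moves was not tested. PDK4, at 0 or 1 count, was not detectable at this depth.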
